A study of Homo sapiens with 8 samples.

Results

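C-type lectin genes of myeloid cells were followed in MV4-11 cells, a human AML cell line that carries the FLT3-ITD mutation and the MLL-AF4 fusion. The 8 genes were taken by symbol from the 26364 gene symbols of the deposited table: CLEC4A, CLEC4D, CLEC4E, CLEC5A, CLEC7A, CLEC10A, CLEC11A and CLEC12A. Cells received DMSO as vehicle (control), the LSD1 inhibitor tranylcypromine (TCP) at 5 μM, the CDK4/6 inhibitor palbociclib at 0.5 μM, or palbociclib and TCP at these doses (combination), and RNA of 2 replicates per group was sequenced, which gave 8 libraries. The labels give 4 days for every group, whereas the methods describe in vitro treatments as 1 day of the CDK6 inhibitor followed by 3 days of both inhibitors, so the length of exposure to TCP alone is not settled here. All groups share the same line and its lesions, which limits the observations to this genotype. The methods state that AML lines were grown on HS-5 human stromal cells, and nothing says whether the replicates were separate cultures, so p-values measure the spread between these libraries only.

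C-type lectin receptors are surface proteins through which monocytes, macrophages, neutrophils and dendritic cells bind sugars, glycolipids and ligands of damaged or infected cells. Some activate the cell. CLEC7A (Dectin-1) binds fungal beta-glucan and signals through its own cytoplasmic tyrosine to SYK and CARD9, while CLEC4D, CLEC4E and CLEC5A borrow the immunoreceptor tyrosine motif of a partner, FCER1G for the first pair and TYROBP (DAP12) for CLEC5A. Others restrain it. CLEC4A (DCIR) and CLEC12A (CLL-1) carry an inhibitory tyrosine motif that recruits phosphatases such as PTPN6, and CLEC12A is known as a surface antigen of AML blasts. CLEC10A (MGL) takes up ligands that bear galactose or N-acetylgalactosamine, and CLEC11A is not a receptor but a secreted growth factor of blood and bone cells, so that the heading of receptors holds for 7 of the 8 genes.

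Of the 8 genes, 5 lie in the lectin-rich stretch of chromosome 12 known as the natural killer gene complex, within 2.01 Mb of GRCh37 (the build of hg19, to which the authors mapped). On chromosome 12 these were CLEC4A (8276213 to 8291203, plus strand), CLEC4D (8662071 to 8674962, plus strand), CLEC4E (8685901 to 8693501, minus strand), CLEC12A (10103915 to 10148293, plus strand) and CLEC7A (10269376 to 10282857, minus strand). CLEC5A lies on chromosome 7 (141627157 to 141646807, minus strand), CLEC10A on chromosome 17 (6977856 to 6983626, minus strand) and CLEC11A on chromosome 19 (51226621 to 51228965, plus strand). In this annotation CLEC5A lies within MGAM on the opposite strand, and CLEC12A overlaps CLEC1B on the opposite strand over 10053 bases. Neither partner exceeded 0.920 TPM (MGAM) or 0.549 TPM (CLEC1B) in a library, and the strand setting of the counting is not given in the sources used here. CLEC4A shares 14932 bases with an unnamed lncRNA of the same strand in this annotation. That locus was not found in the deposited table, and whether it was part of the counting is not known. If it was, reads of CLEC4A could be split with it.

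Values are TPM, counts per gene divided by gene length and scaled to the same sum in every library, and they keep no record of sequencing depth. Each library had 13320 to 13640 genes at 1 TPM or more, and its 10 most abundant genes took 9.12% to 15.8% of the TPM. The myeloid character of the line was read from 8 markers (PTPRC, CD33, SPI1, CSF1R, FLT3, MEIS1, HOXA9 and MPO), each of which reached 1 TPM, with sums between 807 and 1001 TPM. Single markers went different ways. From control to the combination, mean TPM went from 235 to 71.8 for FLT3, 161 to 96.6 for HOXA9 and 43.5 to 31.9 for MEIS1. The means of PTPRC, CD33, SPI1, CSF1R and MPO were higher, with SPI1 from 232 to 467 and CSF1R from 14.6 to 88.8. Of 8 lymphocyte markers, CD3E, CD3G and MS4A1 were listed at 0 in every library, and the sum of 172 to 314 TPM came almost wholly from NKG7 (168 to 311 TPM). Of 8 dendritic cell markers, XCR1 and CLEC9A were listed at 0 throughout and 6 stayed below 1 TPM in every library. Transcripts of 12 stromal genes, of which 8 reached 1 TPM in a library and POSTN was listed at 0 throughout, summed to 2.24 to 8.54 TPM in control libraries, 2.32 to 8.13 under TCP and 12.5 to 20.7 under the combination, while palbociclib replicate 1 had 7.24 and palbociclib replicate 2 stood apart at 98.5 TPM.

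Promoter sequences were found for 4 of the 8 genes in RefSeq (GRCh38.p14), each from 250 bases before to 50 bases after a RefSeq start. That start comes from another annotation than the locations above and need not match their ends. The sequences shown cover a gene that rose most (CLEC5A) and a gene at similar levels under palbociclib and the combination (CLEC12A). They also cover a gene that stayed abundant (CLEC11A) and a gene that was barely read (CLEC4E). They are CLEC5A at chr7:141946925-141947224 (minus strand), CLEC12A at chr12:9971159-9971458 (plus strand), CLEC11A at chr19:50723114-50723413 (plus strand) and CLEC4E at chr12:8540856-8541155 (minus strand), written 5′ to 3′ along the gene. Capitals mark matches on either strand to AGGAAG (a core of SPI1 sites), TTGCNNAA (a C/EBP half-site pair) and TATAAA.
CLEC5A: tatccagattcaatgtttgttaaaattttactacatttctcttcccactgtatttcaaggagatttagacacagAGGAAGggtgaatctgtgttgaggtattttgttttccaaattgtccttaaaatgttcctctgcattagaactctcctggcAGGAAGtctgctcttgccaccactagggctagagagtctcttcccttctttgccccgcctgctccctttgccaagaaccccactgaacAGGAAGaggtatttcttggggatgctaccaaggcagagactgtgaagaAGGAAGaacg
CLEC12A: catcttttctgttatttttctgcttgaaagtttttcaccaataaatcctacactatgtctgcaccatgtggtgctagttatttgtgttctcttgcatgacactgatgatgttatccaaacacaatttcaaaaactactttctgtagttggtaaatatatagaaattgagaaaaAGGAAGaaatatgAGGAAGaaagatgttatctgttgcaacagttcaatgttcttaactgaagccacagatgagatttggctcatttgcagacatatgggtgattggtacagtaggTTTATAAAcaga
CLEC11A: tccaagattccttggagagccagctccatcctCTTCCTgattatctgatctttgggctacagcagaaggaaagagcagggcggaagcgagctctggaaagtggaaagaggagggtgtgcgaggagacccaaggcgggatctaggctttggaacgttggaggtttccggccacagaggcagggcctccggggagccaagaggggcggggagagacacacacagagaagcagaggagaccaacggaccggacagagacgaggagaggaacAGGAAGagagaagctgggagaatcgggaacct
CLEC4E: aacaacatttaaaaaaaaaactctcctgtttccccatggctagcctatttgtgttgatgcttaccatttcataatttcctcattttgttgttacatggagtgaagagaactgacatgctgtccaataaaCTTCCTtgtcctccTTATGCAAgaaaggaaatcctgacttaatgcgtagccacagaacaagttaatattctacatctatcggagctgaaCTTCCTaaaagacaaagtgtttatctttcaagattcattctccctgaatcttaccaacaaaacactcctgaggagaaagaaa
AGGAAG was matched 4 times in the CLEC5A window and 2 times in each of the other windows, where 33.6% of 35116 promoter windows held at least 1 match, 7.89% at least 2 and 0.288% at least 4. TTGCNNAA was found only in the window of CLEC4E (10.5% of all windows), and TATAAA only in that of CLEC12A, where matches on both strands overlap (11.5% of all windows). The windows of CLEC5A and CLEC4E held 2 CpG each and that of CLEC12A 0, against 12 for CLEC11A and a median of 14 over all windows. These are matches of letters and not observed binding.

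In control cells the levels of the 8 genes lay far apart. CLEC11A had 822 and 943 TPM and ranked 117th of the 26364 genes by its mean. CLEC4A had 0.664 and 0.374 TPM, CLEC10A 0.478 and 0.269, and CLEC12A 0.105 and 0.249. CLEC5A was at 0.0344 and 0.0541 TPM, CLEC4D at 0.0629 and 0, CLEC7A at 0 and 0.0340, and CLEC4E was listed at 0 in both libraries. None of the 7 receptors thus reached 1 TPM in a control library, including CLEC12A.

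**Figure D1:**
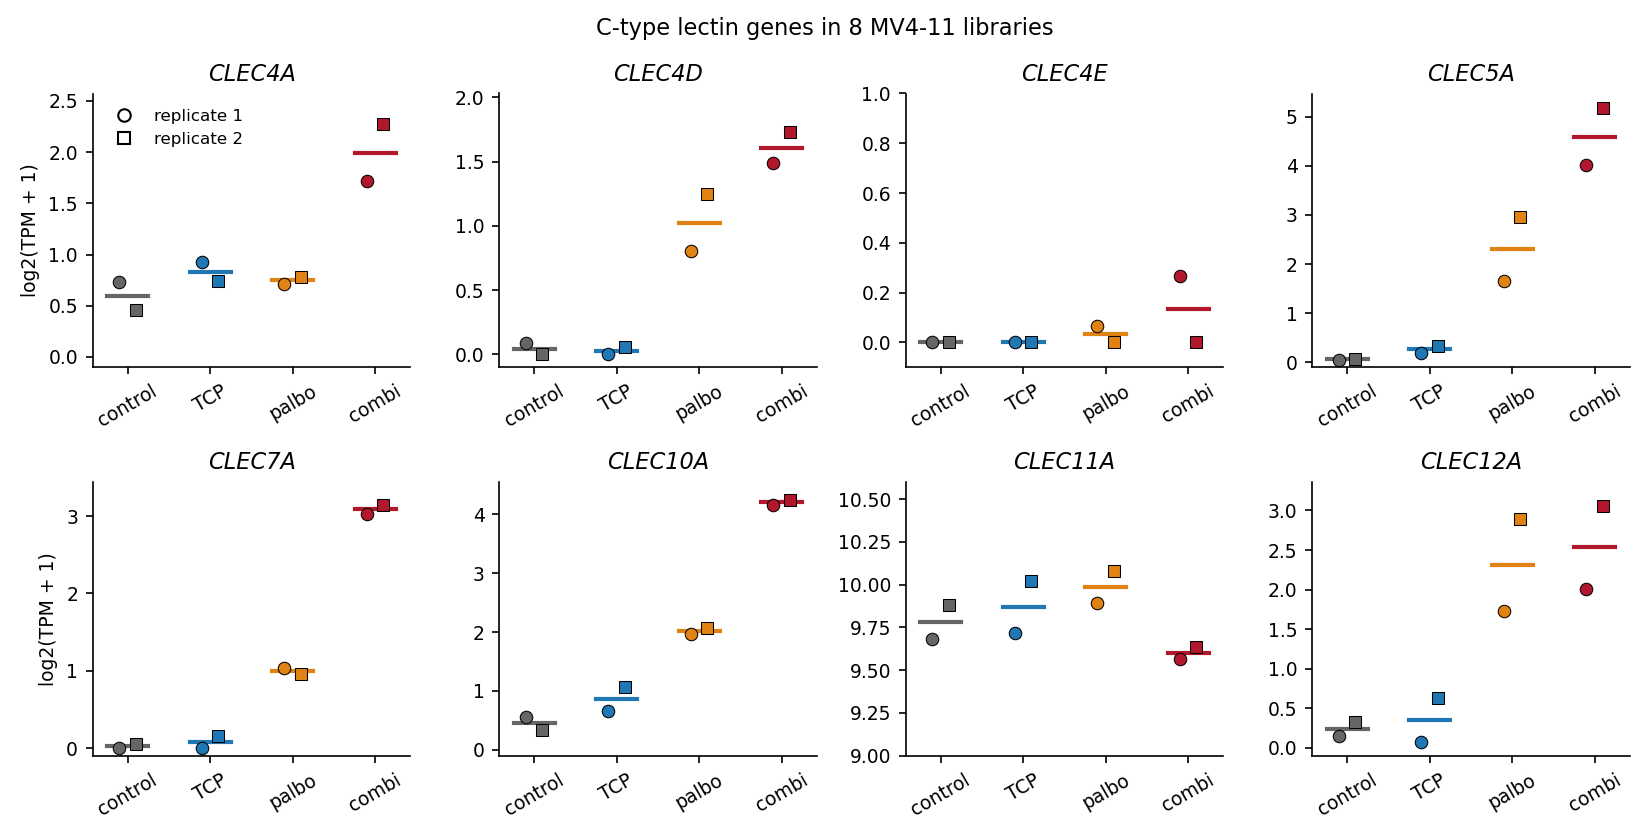
Level of each gene on the log2(TPM + 1) scale in the 8 libraries, by group (palbo, palbociclib; combi, combination). Circles are replicate 1, squares replicate 2 and bars the mean of 2; the axis of CLEC11A starts at 9 and all others near 0. CLEC5A, CLEC7A and CLEC10A are highest in both combination libraries, whereas CLEC12A overlaps between palbociclib and the combination.

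Differential expression was computed with limma on log2(TPM + 1) over the 14151 genes that had 1 TPM or more in 2 or more libraries, and a DEG had a log2 fold change of at least 1 in either direction and an adjusted p below 0.01. Fold changes on this scale understate the change of genes with low TPM. With a pseudocount of 0.1 in place of 1, the log2 fold changes under the combination were 7.33 for CLEC5A, 6.04 for CLEC7A, 5.25 for CLEC10A, 4.17 for CLEC12A, 4.07 for CLEC4D and 2.35 for CLEC4A, and those under palbociclib 4.78 for CLEC5A and 2.77 for CLEC10A, all of them still DEG. CLEC4E was not tested. Of the 7 genes tested, 6 passed this filter only through treated libraries and were therefore bound to differ in level, so the counts below describe them and are no evidence about the family. Against control, 6 of the 8 genes were DEG under the combination, all higher, where 5.87% of all genes tested were called higher. Palbociclib gave 2 DEG among the 8, both higher (4.54% of all genes), and TCP gave 0 (0.0565%). Counted by libraries, 6 of the 8 genes had both combination libraries above both control libraries (26% of all genes tested), 6 had both palbociclib libraries above them (26.5%) and 3 both TCP libraries (12.4%). The median log2 fold change over the 7 tested was 2.30 for the combination, 0.98 for palbociclib and 0.12 for TCP, beside -0.22, -0.16 and -0.04 for all genes tested. These comparisons share the control libraries. The smallest two-sided p that an exact permutation of 2 against 2 libraries allows is 0.333, and the adjusted p-values therefore depend on the variance that limma borrows from all genes.

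The activating receptor CLEC7A had 0 and 0.111 TPM under TCP, 1.06 and 0.939 under palbociclib, and 7.18 and 7.83 under the combination. The combination libraries lay above all others and the palbociclib libraries above those of control and TCP, which overlapped. Its log2 fold change was 3.06 under the combination (standard error 0.17, limma adjusted p = 3.43e-05 after Benjamini and Hochberg). Under palbociclib it was 0.97 (standard error 0.17, limma adjusted p = 0.00361), short of the fold threshold, and 1.001 with median-ratio scaling and 3.25 with a pseudocount of 0.1, both of which made it a DEG. Under TCP it was 0.05 (95% interval -0.34 to 0.45).

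CLEC5A, which pairs with TYROBP in monocytes and neutrophils, had the largest change of the 8 genes. It was read at 0.145 and 0.265 TPM under TCP, 2.15 and 6.80 under palbociclib, and 15.1 and 35.0 under the combination. No groups overlapped in this order, although the libraries within palbociclib and within the combination stood more than 2-fold apart, with ratios of replicate 2 to replicate 1 of 3.16 and 2.31. Under the combination the log2 fold change reached 4.53 (standard error 0.49, limma adjusted p = 0.000372), and 3.96 and 5.09 within replicates 1 and 2. Palbociclib raised it by 2.25 (standard error 0.49, limma adjusted p = 0.00922), a call close to the threshold. It was lost when control replicate 1 or 2, TCP replicate 1 or 2 or palbociclib replicate 2 was left out (limma adjusted p from 0.0146 to 0.0472), without the filter on low values (0.0239), and with quantile normalization (0.0107), median-ratio scaling (0.0106), no variance trend (0.0130) or only the groups compared (0.0172). Without palbociclib replicate 2, the library with the most stromal RNA, its change was 1.59.

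The adjacent genes CLEC4D and CLEC4E, whose annotated ends are 10.9 kb apart, encode receptors for mycobacterial glycolipids. CLEC4D had 0 and 0.0404 TPM under TCP, 0.745 and 1.37 under palbociclib, and 1.80 and 2.31 under the combination. Control and TCP libraries overlapped near 0, and both treatments with palbociclib lay above them. Under the combination CLEC4D rose by a log2 fold change of 1.56 (standard error 0.22, limma adjusted p = 0.00119), a call that was lost without combination replicate 2 (1.44, limma adjusted p = 0.0123). Under palbociclib its value was 0.98 (standard error 0.22, limma adjusted p = 0.0108), and 3.13 with a pseudocount of 0.1, then past the thresholds. CLEC4E was listed at 0 in control and TCP libraries, at 0.0477 and 0 TPM under palbociclib and at 0.202 and 0 under the combination. Tested without the filter on low values, it had a log2 fold change of 0.13 under the combination (limma adjusted p = 0.294). The pair thus lay at different levels in the same libraries, and whether reads of CLEC4E were lost to the depth of sequencing cannot be seen from TPM.

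CLEC10A, the endocytic galactose lectin of macrophages and dendritic cells, was a DEG under palbociclib and under the combination. It had 0.575 and 1.10 TPM under TCP, 2.89 and 3.20 under palbociclib, and 16.9 and 18.0 under the combination. The 4 groups did not overlap and kept the order of control, TCP, palbociclib and combination. Its log2 fold change was 1.56 under palbociclib (standard error 0.18, limma adjusted p = 0.000811) and 3.75 under the combination (standard error 0.18, limma adjusted p = 2.76e-05), both past the thresholds under every alternative tried. Under TCP it was 0.41 (95% interval -0.02 to 0.84, limma adjusted p = 0.601), with values of 0.09 and 0.725 within replicates 1 and 2. The 8 dendritic cell markers summed to 2.08 to 2.87 TPM in the combination libraries and 1.67 to 2.59 in control libraries, which overlapped, with 6.32 to 8.10 under TCP and 0.690 to 0.709 under palbociclib. Single markers of this list went different ways. CCR7 had 2.16 and 1.31 TPM in control libraries and 0.927 and 0.474 in combination libraries, whereas CD1C, which did not pass the filter for testing, had 0 and 0.0369 TPM in control libraries and 1.18 and 0.905 in combination libraries, where CLEC10A was also highest. The part of dendritic marker RNA in the values of CLEC10A was not tested.

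Of the inhibitory receptors, CLEC4A had 0.899 and 0.671 TPM under TCP, 0.642 and 0.715 under palbociclib, and 2.29 and 3.83 under the combination. The combination libraries were above all others, TCP was above control by a narrow margin, and palbociclib overlapped with both. Under the combination the log2 fold change was 1.40 (standard error 0.23, limma adjusted p = 0.00243), which missed the threshold without control replicate 2 (1.26, limma adjusted p = 0.0183) or combination replicate 2 (1.12, limma adjusted p = 0.0173). It was 0.15 under palbociclib (95% interval -0.40 to 0.70) and 0.24 under TCP (95% interval -0.32 to 0.79).

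CLEC12A had 0.0554 and 0.541 TPM under TCP, 2.32 and 6.40 under palbociclib, and 3.01 and 7.34 under the combination. Palbociclib and combination libraries overlapped with each other and lay above those of control and TCP. The log2 fold change was 2.30 under the combination (standard error 0.47, limma adjusted p = 0.00579) and 2.08 under palbociclib (standard error 0.47, limma adjusted p = 0.0109). With the replicate number as a block in the model, the palbociclib value also passed (limma adjusted p = 0.00118), as it did with a pseudocount of 0.1 (3.89, limma adjusted p = 0.00879) and without palbociclib replicate 1 (2.65, limma adjusted p = 0.00985). The combination call was lost without control replicate 1 (limma adjusted p = 0.0334), control replicate 2 (0.0262) or combination replicate 2 (0.0389), and without the filter on low values at a pseudocount of 1 (0.0152) or 0.1 (0.0106).

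CLEC11A, the secreted factor, was the only one of the 8 genes above 1 TPM in control libraries. It had 841 and 1038 TPM under TCP, 949 and 1080 under palbociclib, and 756 and 795 under the combination. Palbociclib libraries lay just above both control libraries, TCP overlapped with control, and the combination libraries were the lowest of the 8. None of these differences passed the thresholds. The log2 fold change was 0.09 under TCP (95% interval -0.21 to 0.38), 0.20 under palbociclib (-0.10 to 0.50) and -0.18 under the combination (-0.48 to 0.11), the last being 0.05 with median-ratio scaling. It stayed among the 135 most abundant genes by mean in every group.

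**Figure D2:**
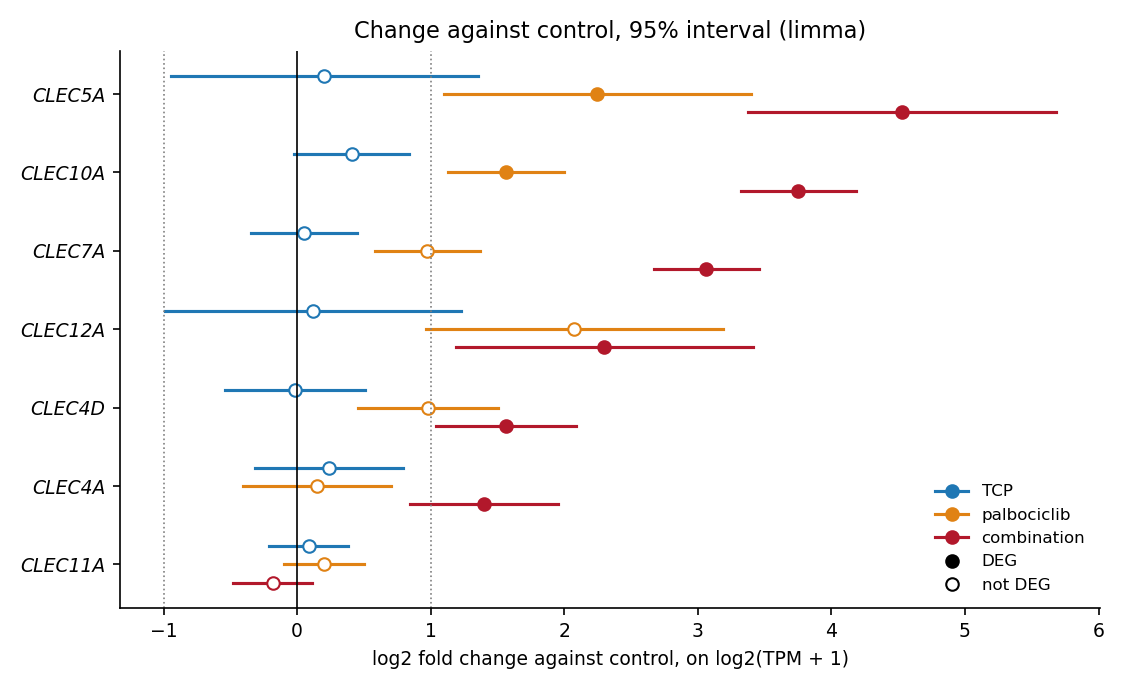
Log2 fold change against control on the log2(TPM + 1) scale for the 7 genes tested, with 95% intervals from limma; filled points are DEG, open points are not, and dotted lines mark a log2 fold change of 1 in either direction. The interval of every gene under TCP includes 0, and under the combination 6 genes are filled, from 1.40 for CLEC4A to 4.53 for CLEC5A.

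**Figure D3:**
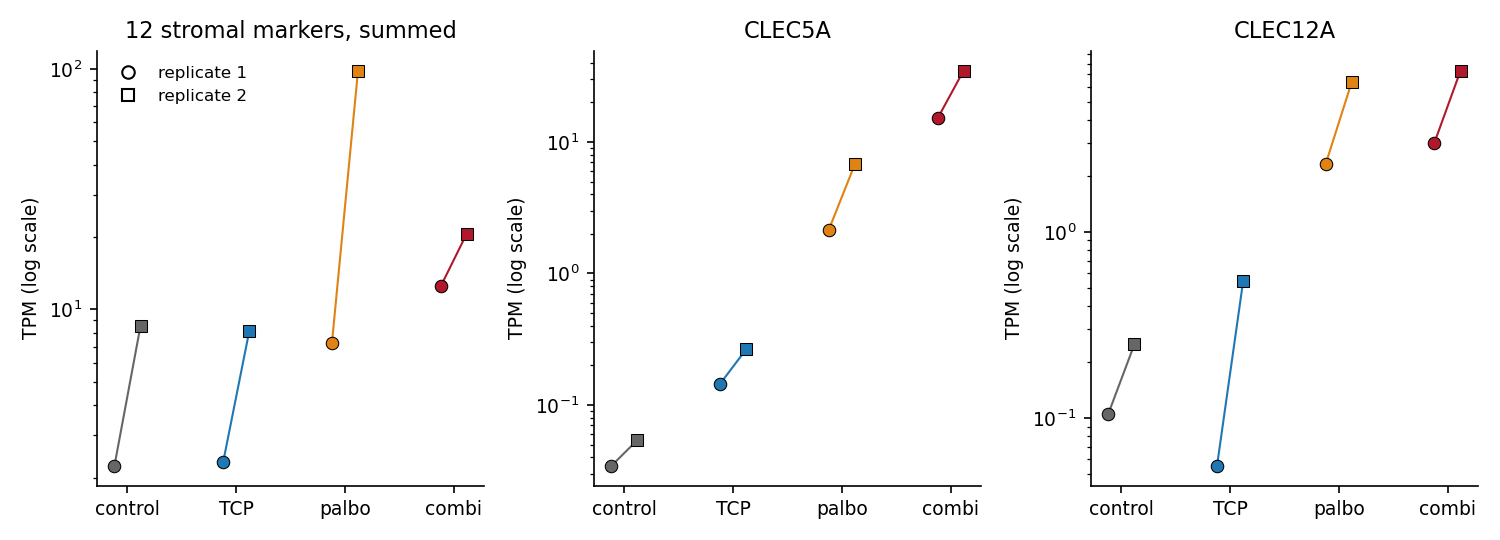
TPM on a log scale of 12 stromal markers (summed), CLEC5A and CLEC12A in each library, with lines joining replicate 1 (circle) and replicate 2 (square) of a group (palbo, palbociclib; combi, combination). In each of the 4 groups replicate 2 is higher in all 3 panels, and palbociclib replicate 2 reaches 98.5 TPM of stromal markers.

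CLEC5A, CLEC11A and CLEC12A were higher in replicate 2 of every group. For CLEC11A the ratio of replicate 2 to replicate 1 ran from 1.05 to 1.23. For CLEC12A the ratio of replicate 2 to replicate 1 was 2.36 in the control group, 9.77 in the TCP group, 2.76 with palbociclib and 2.43 with the combination, and for CLEC5A it ran from 1.57 to 3.16. In the control and TCP groups both CLEC5A and CLEC12A were below 1 TPM, levels whose precision is not known. On the log2(TPM + 1) scale the gap of CLEC12A was 0.18 and 0.55 in these groups. It was 1.16 with palbociclib and 1.05 with the combination. The stromal markers were also higher in replicate 2 of every group, from 2.24 to 8.54 TPM in control cells and from 7.24 to 98.5 under palbociclib. The part of stromal RNA in these values was not tested. The increase of CLEC5A under the combination was present within both replicates (above), as was that of CLEC12A, at 1.86 and 2.74 on the log2 scale. In bulk RNA a change in the share of cells that carry a transcript and a change in its amount per cell cannot be told apart.

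The addition of TCP to palbociclib was examined next, since the study sought a second drug to strengthen the effect of CDK6 inhibitors. Between the combination and palbociclib alone, 2 of the 8 genes were DEG, CLEC7A and CLEC10A, both higher, where 0.459% of all genes tested were called higher. Both combination libraries lay above both palbociclib libraries for 5 of the 8 genes (16.6% of all genes). The ratio of mean TPM was 7.51 for CLEC7A and 5.74 for CLEC10A. Their log2 fold changes were 2.09 (standard error 0.17, limma adjusted p = 0.00313) and 2.19 (standard error 0.18, limma adjusted p = 0.00369). Both calls were lost with a pseudocount of 0.1 (limma adjusted p = 0.0412 and 0.0177), when only the groups compared were fitted (0.0140 and 0.0126), and when any single control, palbociclib or combination library was left out (up to 0.0532 and 0.0634). Within replicates the differences were 1.99 and 2.19 for CLEC7A and 2.20 and 2.18 for CLEC10A.

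The other genes did not pass in this comparison. CLEC5A was higher in both combination libraries than in both palbociclib libraries, by 2.28 on the log2 scale (95% interval 1.13 to 3.43, limma adjusted p = 0.0577), and CLEC4A by 1.25 (0.69 to 1.80, limma adjusted p = 0.0389). CLEC4D had a difference of 0.58 (0.06 to 1.11, limma adjusted p = 0.238). CLEC12A had one of 0.22 (-0.89 to 1.33, limma adjusted p = 0.855). This interval, from the model without pairing, was too wide to tell whether TCP added to palbociclib at this gene. Within replicates 1 and 2 the difference was 0.28 and 0.17. With the replicate block its standard error was 0.265 in place of 0.469, and it was still not called (limma adjusted p = 0.640). CLEC11A was lower in both combination libraries, with a difference of -0.38 (-0.68 to -0.09, limma adjusted p = 0.176). The combination against TCP alone gave 6 DEG among the 8, again the genes called against control and all higher (5.46% of all genes), with log2 fold changes from 1.16 for CLEC4A to 4.32 for CLEC5A. In this comparison CLEC12A had 2.18 (limma adjusted p = 0.00780), a call that was lost when any control, TCP or combination library was left out (up to 0.0511), with no filter on low values (0.0196, and 0.0143 with a pseudocount of 0.1), no variance trend (0.0105) or only the groups compared (0.0163). CLEC4A, at a limma adjusted p of 0.00592, lost its call without any library except combination replicate 1 (up to 0.0389) with only the groups compared (0.0215), and with no filter and a pseudocount of 0.1 (0.0141), and CLEC4D, at 1.58, without combination replicate 2 (1.46, limma adjusted p = 0.0131).

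**Figure D4:**
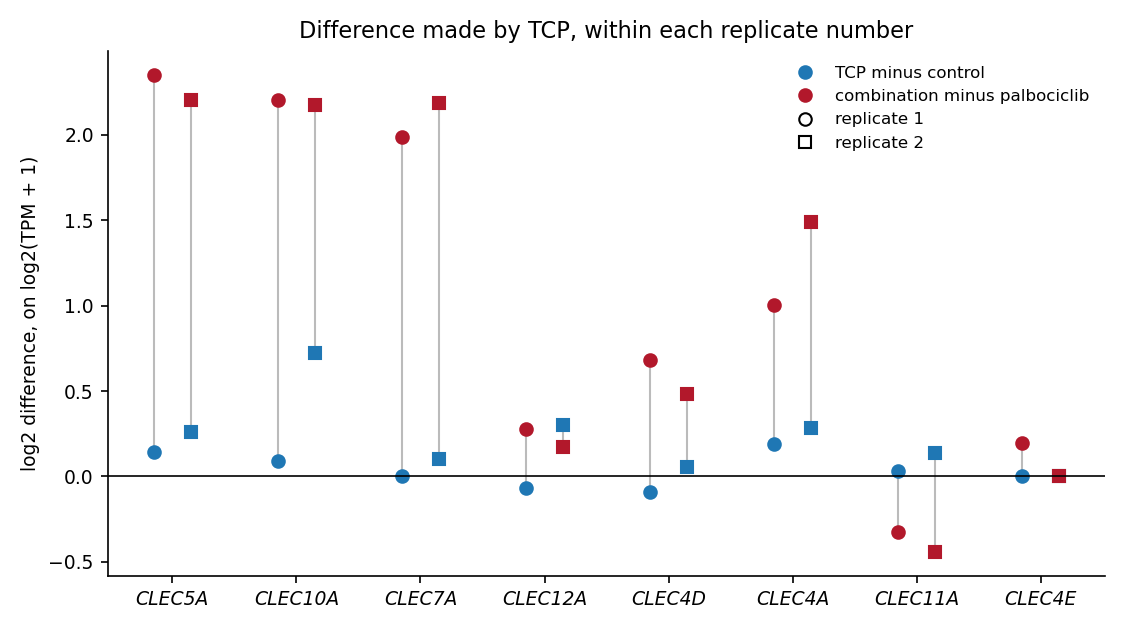
Difference made by TCP on the log2(TPM + 1) scale, within replicate 1 (circles) and replicate 2 (squares), without palbociclib (blue, TCP minus control) and with palbociclib (red, combination minus palbociclib); gray lines join the points of one gene and replicate. For CLEC5A, CLEC7A and CLEC10A the red points lie between 1.99 and 2.35 and the blue points between 0 and 0.725, and for CLEC11A the red points are below 0. The blue points of CLEC5A, CLEC7A and CLEC10A compare libraries with low TPM, whose differences this scale understates.

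Whether the difference made by TCP depended on palbociclib was tested as the interaction term of the limma model. In this test 0 of the 7 genes tested passed the thresholds, as did 0 of the 14151 genes, and 5 of the 7 had an unadjusted p below 0.05, against 6.39% of all genes. Of these 5 genes, CLEC4A, CLEC5A, CLEC7A and CLEC10A had values above 0 and CLEC11A a value below 0. All of the 7 but CLEC11A passed the filter only through treated libraries and had at most 1.10 TPM in control and TCP libraries. On log2(TPM + 1) their difference between TCP and control is understated, which can raise the interaction. The count therefore describes these genes and is no evidence about the family. The interaction was 2.04 on the log2 scale for CLEC7A (95% interval 1.48 to 2.59, limma adjusted p = 0.172), with 1.99 and 2.08 within the replicates. For CLEC10A it was 1.78 (1.17 to 2.39, limma adjusted p = 0.200), for CLEC5A 2.07 (0.45 to 3.70, limma adjusted p = 0.646) and for CLEC4A 1.01 (0.23 to 1.79, limma adjusted p = 0.635). For CLEC11A it was -0.47 (-0.89 to -0.05, limma adjusted p = 0.729). CLEC4D had 0.60 (-0.14 to 1.34) and CLEC12A 0.11 (-1.46 to 1.68). The value of CLEC7A fell to an adjusted p of 0.0162 without the filter on low values and 0.0232 without a variance trend. With a pseudocount of 0.1 the interaction was larger for CLEC7A (2.46, limma adjusted p = 0.631), CLEC4A (1.434) and CLEC4D (1.05). It was smaller for CLEC5A (1.496, standard error 0.873, limma adjusted p = 0.931), CLEC10A (1.522) and CLEC12A (0.042), and unchanged for CLEC11A. The ratio of mean TPM for TCP against control and for the combination against palbociclib was 4.63 and 5.594 for CLEC5A. It was 2.238 and 5.736 for CLEC10A and 3.265 and 7.511 for CLEC7A. The interaction of CLEC5A thus depended on the pseudocount. In the comparison of TCP with control, 0 of the 7 genes had an unadjusted p below 0.05 in limma (smallest 0.0606), where 8.77% of all genes did.

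The proteins that carry the signal of these receptors were followed in a list of 20 adapters, kinases, phosphatases and downstream factors, all of which were tested. Under the combination 6 of the 20 were DEG, all higher (5.87% of all genes), with a median log2 fold change of 0.54 over the list beside -0.22 over all genes. Palbociclib gave 5, all higher (4.54%), with a median of 0.53 beside -0.16. TCP gave 0 (7 of the 20 had an unadjusted p below 0.05 in limma, against 8.77% of all genes), with a median of 0.04 beside -0.04.

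Among the partners, the adapter FCER1G had 43.6 and 28.0 TPM in control cells, 80.3 and 45.7 under TCP, 304 and 337 under palbociclib, and 669 and 772 under the combination. It rose by 3.16 under palbociclib and 4.32 under the combination on the log2 scale (limma adjusted p = 0.000337 and 6.44e-05). TYROBP, the partner of CLEC5A, had 120 and 121 TPM in control cells, 525 and 616 under palbociclib, and 602 and 675 under the combination. It rose by 2.23 and 2.39 (limma adjusted p = 3.6e-05 and 1.58e-05). Both adapters were thus read at 28.0 TPM or more in control cells, in which the receptors were below 1 TPM. The kinase SYK had 55.0 and 65.9 TPM in control cells and 69.8 and 81.1 under the combination, a log2 fold change of 0.32 that did not pass (limma adjusted p = 0.0682). CARD9, the scaffold that carries the signal of CLEC7A on to NF-kB, was at 108 and 111 TPM in control cells and 92.7 and 121 under the combination, a change of -0.04 (limma adjusted p = 0.786). The phosphatase PTPN6 had 426 and 444 TPM in control cells and 722 and 760 under the combination, a change of 0.77 that was under the fold threshold (limma adjusted p = 0.000206). The SRC family kinase FGR rose from 19.8 and 22.0 TPM to 206 and 213 under palbociclib and 217 and 229 under the combination, log2 fold changes of 3.27 and 3.35 (limma adjusted p = 1.04e-05 and 5.45e-06). For none of the 20 was a DEG called between the combination and palbociclib (5 had an unadjusted p below 0.05 in limma, where 17.5% of all genes did), and FCER1G had a difference of 1.16 (limma adjusted p = 0.0833). LYN, named after its values were seen, had a difference of 0.55 (limma adjusted p = 0.00883), which missed only the fold threshold.

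**Figure D5:**
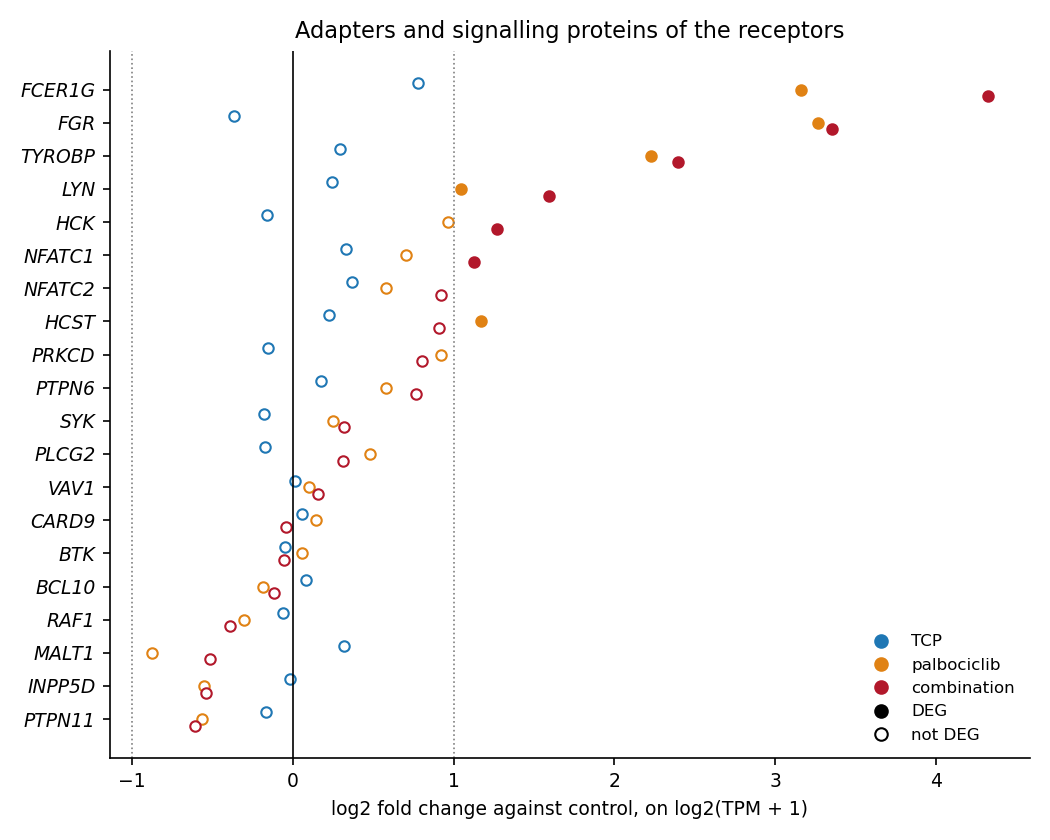
Log2 fold change against control on the log2(TPM + 1) scale for 20 adapters and signaling proteins, ordered by the combination; filled points are DEG, open points are not, and dotted lines mark a log2 fold change of 1 in either direction. FCER1G, FGR and TYROBP lead under palbociclib and the combination, and SYK and CARD9 are not DEG under any treatment.

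Other lectin genes of the natural killer gene complex were mostly below 1 TPM. Of 22 such genes, 3 were tested, and 19 of the 26 genes of this list and the family that the annotation places on chromosome 12 stayed below 1 TPM in every library. The single DEG among the 3 was CLEC2D, a ligand of the NK receptor KLRB1. It had 49.6 and 53.6 TPM in control cells, 68.9 and 65.2 under TCP, 16.5 and 13.4 under palbociclib, and 16.0 and 12.9 under the combination. It fell by 1.73 on the log2 scale under palbociclib and by 1.77 under the combination (limma adjusted p = 0.000206 and 0.000102), where 4.56% and 7.82% of all genes were called lower. CLEC6A (Dectin-2), chosen after its values were seen as the neighbor of CLEC4D on the side opposite to CLEC4E, had 0 TPM in both control libraries and 1.48 and 0.661 under the combination, and was not tested.

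Of 25 further genes with C-type lectin domains, 14 were tested, and 6 were DEG under the combination, all higher (5.87% of all genes), with a median of 0.73 beside -0.22. Among those tested, CLEC17A, CLEC3B, CD93, CLEC4G and COLEC12 passed the filter only through treated libraries. CLEC17A and CLEC3B are among the 6 DEG, so this count and median describe the list and are no evidence about it. The largest increases were those of CLEC17A, known from B cells, and THBD, which encodes thrombomodulin. CLEC17A had 0.437 and 0.344 TPM in control cells, 1.44 and 1.12 with TCP alone, 3.84 and 3.62 under palbociclib, and 11.3 and 7.86 under the combination, a log2 fold change of 2.91 under the combination (limma adjusted p = 6.42e-05). THBD had 31.9 and 33.9 TPM in control cells and 199 and 230 under the combination, a log2 fold change of 2.66 (limma adjusted p = 3.63e-05). The only gene of this list called between the combination and palbociclib was CD209 (DC-SIGN), named after its values were seen. CD209 had 0.852 and 1.19 TPM in control cells, 2.49 and 2.42 under TCP, 0.674 and 0.943 under palbociclib, and 9.41 and 9.58 under the combination, which was above palbociclib by 2.54 on the log2 scale (limma adjusted p = 0.00153).

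Genes whose pattern over the 8 libraries was most like that of each called member were found by the root mean square difference of centered log2(TPM + 1). For CLEC7A these were FAM65B (0.22) and LILRA3 (0.27), and for CLEC10A they were SMPDL3A (0.22) and CLEC7A itself (0.29). SMPDL3A, for example, had 0.987 and 1.07 TPM in control cells, 2.79 and 2.89 under TCP, 6.05 and 6.20 under palbociclib, and 32.9 and 33.5 under the combination. For CLEC5A the nearest were CRISPLD2 (0.41) and CX3CR1 (0.43), and for CLEC12A HYAL3 (0.29) and CNTNAP2 (0.29). HYAL3 had 59.6 and 90.5 TPM under palbociclib and 47.8 and 73.2 under the combination, with replicate 2 the higher one as for CLEC12A. For CLEC4D they were SIGLEC5 (0.09) and PLBD2 (0.12), and for CLEC4A SMIM4 (0.16) and FGD2 (0.18). Within the family, CLEC7A and CLEC10A lay closest (0.29) and CLEC5A and CLEC11A farthest apart (1.95). This measure is a description over 8 libraries of 4 groups and says nothing of shared control.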

How the data were processed

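Poly(A) RNA of 8 MV4-11 libraries (4 groups of 2) was analyzed from the table of TPM that the authors deposited, with groups and replicates taken from the labels. Before deposit the authors aligned reads to hg19 (subread-align), assigned them to genes (featureCounts 1.6.4) and turned the counts into TPM. The gene annotation, gene lengths and strand setting are not given in the sources used here, and depth is unknown, so no counting interval is given. The test on log2(TPM + 1) used R 4.3.3 and limma 3.58.1. The model held all 8 libraries and a coefficient for each group, with a mean-variance trend, 4 residual degrees of freedom and Benjamini-Hochberg adjustment over 14151 genes. The script was tested on simulated data. Locations are from GENCODE on GRCh37 and promoters from RefSeq on GRCh38.p14.

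The members and lists were chosen with earlier results of these data known. The lists hold 20 signaling proteins, 22 lectins of the natural killer complex, 25 other lectins and 4 sets of cell type markers. Named from them were FCER1G, TYROBP, SYK, CARD9 and PTPN6, and up to 2 of the largest increases and decreases among combination DEG. Pattern neighbors were the 2 nearest genes with a mean of at least 5 TPM in their highest group.

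Libraries with the same replicate number deviated together from the means of their groups (correlation across genes 0.169 to 0.491 in the 6 pairs of groups). The numbers were therefore taken to pair libraries, on the strength of these values and no label. Alternatives were a pseudocount of 0.1, no filter (genes at 0 in every library left out), quantile normalization, a mean of at least 5 TPM, median-ratio scaling, the replicate block, only the groups compared, no variance trend, an adjusted p below 0.05 and each library left out in turn. No filter with a pseudocount of 0.1 was added after seeing the data.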

Additional observations from a re-analysis of the deposited data

Results flagged for a closer look

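CLEC11A stood out because its differences made by TCP had opposite signs with and without palbociclib in both replicates. In both TCP was above control, by 0.03 and 0.14 on the log2 scale, and in both the combination was below palbociclib, by values of -0.33 and -0.44. The difference between the TCP effects was -0.47 on the log2 scale (95% interval -0.89 to -0.05), with an unadjusted p of 0.0330 and an adjusted p of 0.729 from the interaction term of limma, so it did not pass over all genes. Without palbociclib the libraries of TCP and control overlapped, and the log2 fold change of 0.09 (95% interval -0.21 to 0.38) was not called and ran from -0.065 to 0.237 when 1 library was left out. The adjusted p ranged from 0.200 with the replicate block to 0.866 over the alternatives that keep all libraries. Groups of 2 libraries are too small for a test of single outlying values.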

How the results depend on the processing

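The number of the 8 genes called higher under palbociclib, 2 with the main settings, was 5 with a pseudocount of 0.1, 4 with no filter and a pseudocount of 0.1, and 1 with no filter, quantile normalization, only the groups compared or no variance trend. Between the combination and palbociclib the count of 2 became 0 with a pseudocount of 0.1 (with or without the filter) or only the groups compared, and 1 with a mean of at least 5 TPM. That filter, which keeps fewer of the 8 genes, also gave 2 in place of 6 for the combination against control and against TCP. Leaving out 1 library gave 1 to 3 genes called under palbociclib, 3 to 6 under the combination, 0 to 2 between the combination and palbociclib, and 3 to 5 between the combination and TCP. Both values of 3 came without combination replicate 2. For TCP against control and for the interaction the count was 0 under every alternative run. With the replicate block the counts were 3 under palbociclib, 6 under the combination, 2 and 6 for the combination against palbociclib and TCP, and 0 for the rest, and the pairing changed no call other than that of CLEC12A under palbociclib.

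The direction of 1 value turned with the scaling, that of CLEC11A under the combination (0.048 with median-ratio scaling, -0.18 with the main settings). Leaving out 1 library turned the sign of small values. Under TCP these ran from -0.059 to 0.029 for CLEC4D, -0.065 to 0.237 for CLEC11A, -0.024 to 0.128 for CLEC7A and -0.16 to 0.39 for CLEC12A. For CLEC12A the difference between the combination and palbociclib ran from -0.35 to 0.80 and the interaction from -0.47 to 0.68. None of these values passed the thresholds. The cause of these shifts was not tested.

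The counts of DEG over all genes given here come from limma on TPM and are not those that the study gives. Under TCP the number was 8 with the main settings, 20 with the replicate block, 3 with quantile normalization or median-ratio scaling, 36 at an adjusted p below 0.05 and 0 with only the groups compared. It was 1 without control replicate 2 and 0 without any other single library. Between the combination and palbociclib it was 71, and 114 with the block, 183 at an adjusted p below 0.05, 42 with a pseudocount of 0.1, 38 with no filter, 34 with both, and 10 with only the groups compared. It was 1 without any single palbociclib or combination library, 20 and 24 without control replicates 1 and 2, and 50 and 41 without TCP replicates 1 and 2. Under palbociclib it was 1288, and 783 without palbociclib replicate 2, and for the interaction 0, and 7 with no filter. The share called higher was 42.8% of the DEG under the combination and 61.9% with median-ratio scaling, and under palbociclib 49.9% and 66.4%. With this scaling the median log2 fold change of all genes under the combination moved from -0.22 to -0.01, so each of the changes above is to be read against that shift. Depth cannot be read from TPM, so levels below 1 TPM have no known precision. The interaction could not be fitted with only the groups compared, since it needs all 4.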
